A study of Mus musculus with 9 samples.

Results

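Imprinted genes were followed by cluster in mouse embryonic stem cells (ESCs) that carry mutations in Rbbp4, which encodes a histone-binding subunit shared by Polycomb Repressive Complex 2 and by histone deacetylase complexes. The set was taken by name. It holds 44 known imprinted genes of the H19/Igf2, Kcnq1ot1, Meg3/Dlk1, Peg3, Peg10/Sgce, Snrpn and Gnas clusters and of smaller loci, out of 25239 gene symbols in the count files. All 44 were found, and 41 of them passed the filter on low counts. The other 3, Rtl1, Airn and Kcnq1, are given by their reads. Peg13 and Nap1l5 passed only through the mutant libraries, so they could enter the test only by being higher there.

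Poly(A) RNA was sequenced from E14 ESCs with the genotype Rbbp4+/+ (the control) and from the mutant lines Rbbp4 Ins/Ins and Rbbp4 Ins/Del, with 3 libraries per line. The mutant lines are called Ins/Ins and Ins/Del below. All lines share the strain label 12910la and were grown in serum medium with leukemia inhibitory factor. Each mutant line is 1 clone made with CRISPR-Cas9 from E14. Rbbp4 Ins/Ins carries an in-frame insertion on both alleles, which exchanges a residue and adds a cysteine, and Rbbp4 Ins/Del carries that insertion on one allele and an in-frame deletion on the other. A clone and its mutation therefore cannot be told apart, and nothing states that the libraries of a line came from separate cultures, so the p-values measure the spread between these libraries, which may be technical.

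An imprinted gene is transcribed mainly from the copy inherited from one parent. Most imprinted genes lie in clusters, and each cluster is governed by an imprinting control region whose DNA methylation was set in the egg or the sperm and is kept on one parental copy through early development. In ESCs these marks can be gained or lost in culture, and paternally expressed genes such as Plagl1, Nnat and Zrsr1 have their control region at their own promoter. The counts do not separate the parental alleles, so a change may come from either copy. The expressed allele named for a gene below is a background label that can depend on tissue, and it was not measured in these cells.

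The promoters of Nnat, Plagl1, Nap1l5 and Zrsr1 are printed because these paternally expressed members were higher in both mutant lines and have a control region at their promoter. Peg13, the other such member, is not printed. RefSeq (build GRCm38.p6) windows from 250 bases before to 50 after the start were used for 35 of the 44 members, in 53 windows. Impact was left out of these member windows, so the member shares and the member median below do not cover it. The absence of a member here does not show that RefSeq lacks a window for it. ZFP57, a zinc finger protein that protects imprints, binds the methylated hexamer TGCCGC, which is in capitals here on either strand. The window of Nnat, a small membrane protein of neurons, is chr2:157559828-157560127 on the plus strand. That of Plagl1, a zinc finger regulator of growth, is chr10:13090582-13090881 on the plus strand. Nap1l5, a relative of the nucleosome assembly proteins, has chr6:58907077-58907376 on the minus strand. Zrsr1, a splicing factor gene copied from an RNA, has chr11:22971755-22972054 on the plus strand.
Nnat: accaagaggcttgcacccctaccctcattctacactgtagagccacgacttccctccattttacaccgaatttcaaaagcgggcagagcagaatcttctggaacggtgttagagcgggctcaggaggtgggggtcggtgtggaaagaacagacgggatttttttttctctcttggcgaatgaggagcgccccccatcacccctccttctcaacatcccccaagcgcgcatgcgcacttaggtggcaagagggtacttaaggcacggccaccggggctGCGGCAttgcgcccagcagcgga
Plagl1: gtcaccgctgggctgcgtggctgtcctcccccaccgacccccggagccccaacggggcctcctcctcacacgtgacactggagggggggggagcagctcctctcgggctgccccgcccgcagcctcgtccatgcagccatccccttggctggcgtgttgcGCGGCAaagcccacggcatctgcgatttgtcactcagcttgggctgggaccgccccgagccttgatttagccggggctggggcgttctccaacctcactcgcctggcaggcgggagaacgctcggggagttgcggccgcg
Nap1l5: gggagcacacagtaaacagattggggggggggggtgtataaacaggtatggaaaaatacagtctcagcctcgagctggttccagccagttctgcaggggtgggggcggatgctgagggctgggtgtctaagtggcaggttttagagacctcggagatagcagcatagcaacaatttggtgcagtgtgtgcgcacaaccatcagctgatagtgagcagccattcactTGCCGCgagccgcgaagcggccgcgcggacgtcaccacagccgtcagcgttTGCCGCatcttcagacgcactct
Zrsr1: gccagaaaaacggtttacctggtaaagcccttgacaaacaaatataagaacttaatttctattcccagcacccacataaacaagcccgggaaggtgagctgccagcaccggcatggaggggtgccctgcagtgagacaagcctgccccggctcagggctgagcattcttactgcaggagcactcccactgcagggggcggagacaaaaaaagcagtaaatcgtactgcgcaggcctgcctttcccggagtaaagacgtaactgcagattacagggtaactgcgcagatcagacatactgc
Nnat and Plagl1 hold 1 match each, Nap1l5 holds 2 and Zrsr1 holds 0. A match was present for 12 of the 35 members (34.3%) and for 13.1% of the 27025 genes with a window. These shares count a match in any window of a gene. By window, the shares were 24.5% for members and 11.6% for all. The windows hold 17 CpG dinucleotides in Nnat, 26 in Plagl1, 17 in Nap1l5 and 10 in Zrsr1, against a median of 14 over the windows of members and 7 over all 32851 windows. A match of these letters is a description of the sequence and not of binding.

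The libraries held 15838064 to 21366868 counted reads. Values below are normalized counts, the reads scaled to the mean library size, and each adjusted p comes from the quasi-likelihood F test of edgeR, adjusted by Benjamini-Hochberg over 14125 genes and called at 0.01. For Rbbp4 itself the control mean was 10005 ± 99.0 normalized counts (SD, n = 3), that of Ins/Ins 5604 ± 153 (adjusted p = 1.78e-25) and that of Ins/Del 10359 ± 238 (adjusted p = 0.107); since the mutations are small in-frame changes, this level does not check them. The stem cell label was checked against 10 pluripotency genes, all detected. Their summed level was 84914 to 89812 in the control, 112107 to 113621 in Ins/Ins and 109070 to 112251 in Ins/Del. Of these genes, 7 were called higher and 3 lower in Ins/Ins, and 6 and 2 in Ins/Del. Utf1, for example, fell from a mean of 4354 normalized counts in the control to 3124 in Ins/Ins and 2648 in Ins/Del. Markers of other cells moved too. The sum of 10 fibroblast markers was 719 to 796 in the control, 319 to 348 in Ins/Ins and 422 to 449 in Ins/Del, and that of 6 neural markers was 3421 to 3480, 1388 to 1510 and 1688 to 1773. These sums hold genes of opposite direction. Among the fibroblast markers, Col1a1 had means of 287, 17.0 and 24.4 normalized counts in the control, Ins/Ins and Ins/Del, while Thy1 had 45.7, 246 and 312. Among the neural markers, the progenitor genes Nes (1744, 230.3 and 205) and Pax6 (678, 73.6 and 30.1) were lower in the mutants, while the neuronal tubulin Tubb3 was higher (472, 967 and 1295). Sums for 10 endoderm markers were 349 to 383, 248 to 322 and 339 to 377, with Afp, Ttr and Apoa1 at 0 in the control. Among them, Hnf4a (means 4.19, 56.3 and 67.8) and Sox7 (22.2, 70.8 and 106) rose, while Dab2 (265, 104 and 109) fell. Sums for 10 trophoblast markers were 1713 to 1761, 2209 to 2327 and 1484 to 1562, with Prl3d1 at 0 in every library. Sums for 6 mesoderm markers were 249.6 to 276, 337 to 369 and 283 to 305, with Mesp1 at 0 in the control. Eomes, which is in both the trophoblast and the mesoderm list, was the largest term of the mesoderm sum (means 193, 322 and 271). The mesoderm marker T (44.6, 2.34 and 0.301) and the trophoblast marker Krt7 (149, 82.2 and 50.4) went the other way. The endoderm, trophoblast and mesoderm sums thus also hold genes of opposite direction. Fewer cells of a type and less RNA per cell cannot be told apart in such bulk libraries, and the part of these markers in the results was not tested.

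The imprinted genes changed in both directions in each mutant line. In Ins/Ins, 12 of the 41 tested members were higher than in the control and 18 were lower, which is 73.2% against 58.4% of all tested genes (29.0% higher and 29.4% lower). Ins/Del had 14 members higher and 16 lower, again 73.2%, against 62.5% of all genes (30.6% higher and 31.9% lower). Changes of over 2-fold were found for 14 members (34.1%) in Ins/Ins and 17 (41.5%) in Ins/Del, where the shares of all tested genes were 16.0% and 18.6%. Without Peg13 and Nap1l5, which had to be higher, these shares were 30.8% and 38.5% of 39 members. The median log2 fold change of the members was -0.15 in Ins/Ins and 0.02 in Ins/Del, beside 0.00 and -0.01 for all genes. Their median absolute log2 fold change was 0.64 and 0.57, beside 0.30 and 0.34 for all genes. Among 20 tested paternally expressed members, Ins/Ins had 5 higher and 10 lower, and Ins/Del had 9 higher and 7 lower. Among 18 maternally expressed members these numbers were 6 and 6, and then 4 and 7. Both classes thus held members of either direction. The paternal members counted as higher in each line include Peg13 and Nap1l5, which had to be higher. So do the 12 and 14 higher members given first. Both mutant lines share the same control libraries, so their values are given side by side.

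**Figure D1:**
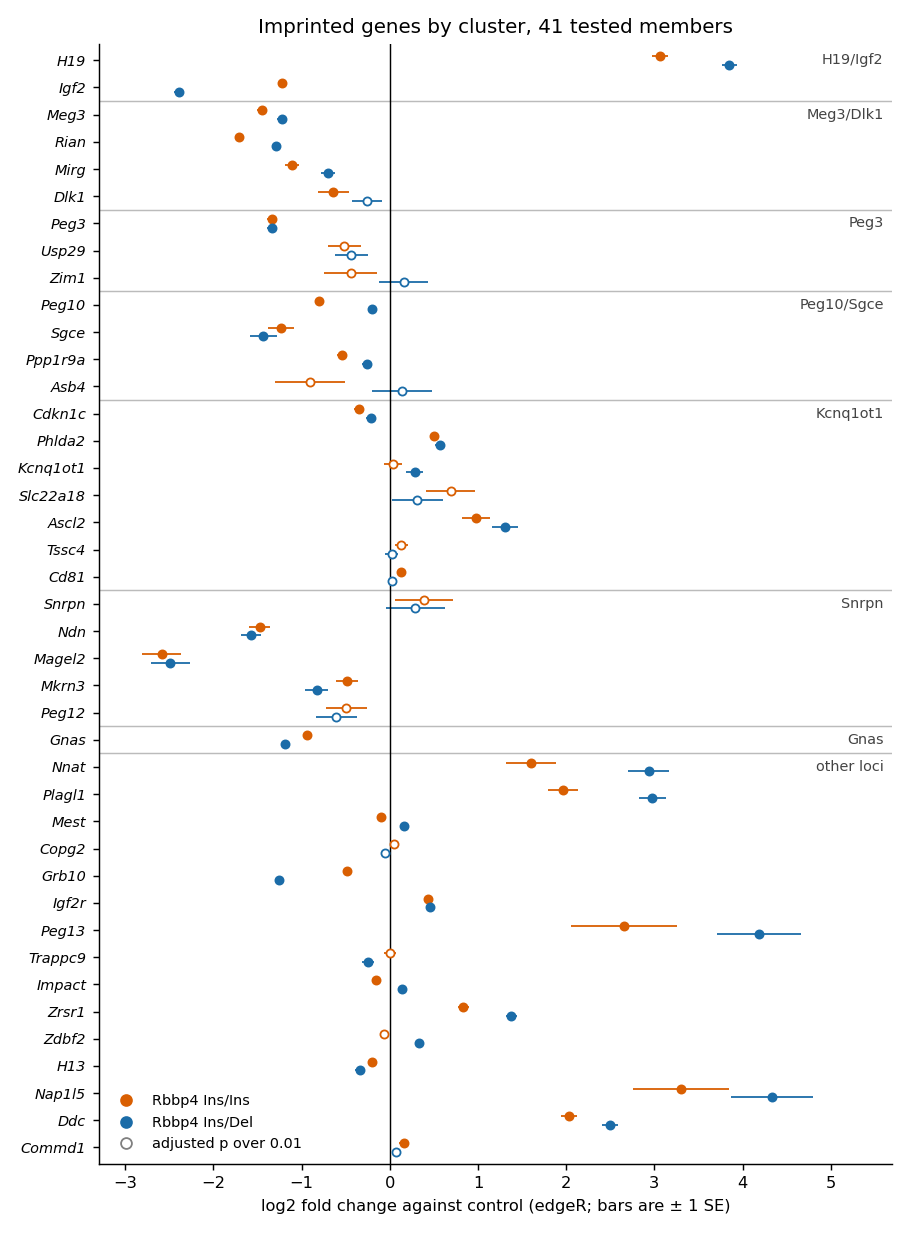
Log2 fold change against control (x axis, edgeR, bars ± 1 SE) of the 41 tested members (y axis), grouped by cluster, in Ins/Ins (orange) and Ins/Del (blue). Open symbols have an adjusted p over 0.01. H19 stands opposite to Igf2, the tested Meg3/Dlk1 members all lie at or below 0, and the highest values in Ins/Del belong to Nap1l5 and Peg13, which had 5 control reads each.

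H19 rose and Igf2 fell in both mutant lines, and both changed further in Ins/Del. These neighbors share enhancers and one control region. H19 (ENSMUSG00000000031.16, chr7:142575529-142578143, minus strand) is the maternally expressed non-coding RNA of the locus. Its level was 88.1, 75.4 and 70.4 normalized counts in the control, 679, 650.0 and 643 in Ins/Ins, and 1046, 1204 and 1159 in Ins/Del. The 3 lines did not overlap. H19 was 8.43-fold higher in Ins/Ins (log2 fold change 3.06 ± 0.090 SE, adjusted p = 9.17e-28) and 14.6-fold higher in Ins/Del (3.85 ± 0.083, adjusted p = 2.94e-32). Ins/Del exceeded Ins/Ins by 1.73-fold (adjusted p = 2.25e-13).

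Igf2 (chr7:142650766-142666816, minus strand) encodes insulin-like growth factor 2, the paternally expressed growth factor of this cluster. Its libraries read 1530.3, 1502 and 1472 in the control, 641, 678 and 617 in Ins/Ins, and 259, 308 and 290.4 in Ins/Del. Every Igf2 value of one line lay apart from those of the others, in the reverse order of H19. The log2 fold change was -1.22 ± 0.052 in Ins/Ins (adjusted p = 1.7e-22) and -2.39 ± 0.0595 in Ins/Del (adjusted p = 2.94e-30). Between the mutant lines, Igf2 was 2.26-fold lower in Ins/Del (adjusted p = 2.29e-16). Per kb of exon, H19 stood at 31.7 normalized counts and Igf2 at 262 in the control. These levels were 267 and 113 in Ins/Ins, and 462 and 49.9 in Ins/Del. Their order in both mutant lines was thus opposite to that in the control.

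In the neighboring Kcnq1ot1 cluster, which is governed by a separate control region, 3 of 7 tested members rose and 1 fell in each line (57.1%, near the 58.4% and 62.5% of all tested genes). Its paternal non-coding RNA Kcnq1ot1 runs antisense within Kcnq1, a potassium channel gene. Kcnq1ot1 had 654, 997 and 1033 normalized counts in the control, 912, 1042 and 775 in Ins/Ins, and 1241, 966 and 1027 in Ins/Del, so the lines overlapped. The value in Ins/Ins did not pass the test (log2 fold change 0.04, 95% interval -0.16 to 0.23, adjusted p = 0.756). In Ins/Del it was 0.28 ± 0.097 (adjusted p = 0.00933), a call that was lost on leaving out either of 2 libraries. Without control library 1 the value was 0.09 (adjusted p = 0.324), and without Ins/Del library 1 it was 0.17 (adjusted p = 0.165). DESeq2 gave an adjusted p of 0.254, and library totals without TMM gave 0.0169. Kcnq1 had 5, 4 and 2 reads in the control, 3, 3 and 1 in Ins/Ins, and 2, 1 and 0 in Ins/Del, and was not tested.

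Ascl2 had the largest change among the 7 tested members of this cluster. Ascl2, a transcription factor of trophoblast progenitors, had 58.1, 54.5 and 41.1 normalized counts in the control, 102, 98.2 and 106 in Ins/Ins, and 114, 125 and 147 in Ins/Del. All mutant libraries were above all control libraries. On the log2 scale the change was 0.98 ± 0.155 (adjusted p = 8.17e-07) and 1.31 ± 0.149 (adjusted p = 5.86e-10). Phlda2, which limits placental growth, rose by 0.51 and 0.57 on the log2 scale, from 667 to 947 and 989 normalized counts. Cdkn1c, an inhibitor of cyclin-dependent kinases, went the other way, from 960.0 to 754 and 828 (log2 fold change -0.35 and -0.21, adjusted p = 2.36e-06 and 0.0013). Without Ins/Del library 3 the Cdkn1c value in that line was -0.17 and missed the limit (adjusted p = 0.0157), as it did without library 2 (-0.19, adjusted p = 0.0121). Cd81, a tetraspanin, was higher by 0.13 on the log2 scale in Ins/Ins (adjusted p = 0.00124), and this call was lost without control library 3 (0.10, adjusted p = 0.0118). Cd81 in Ins/Del (0.03) and Tssc4 (0.13 and 0.02) and Slc22a18 (0.69 and 0.31) in both lines did not pass.

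**Figure D2:**
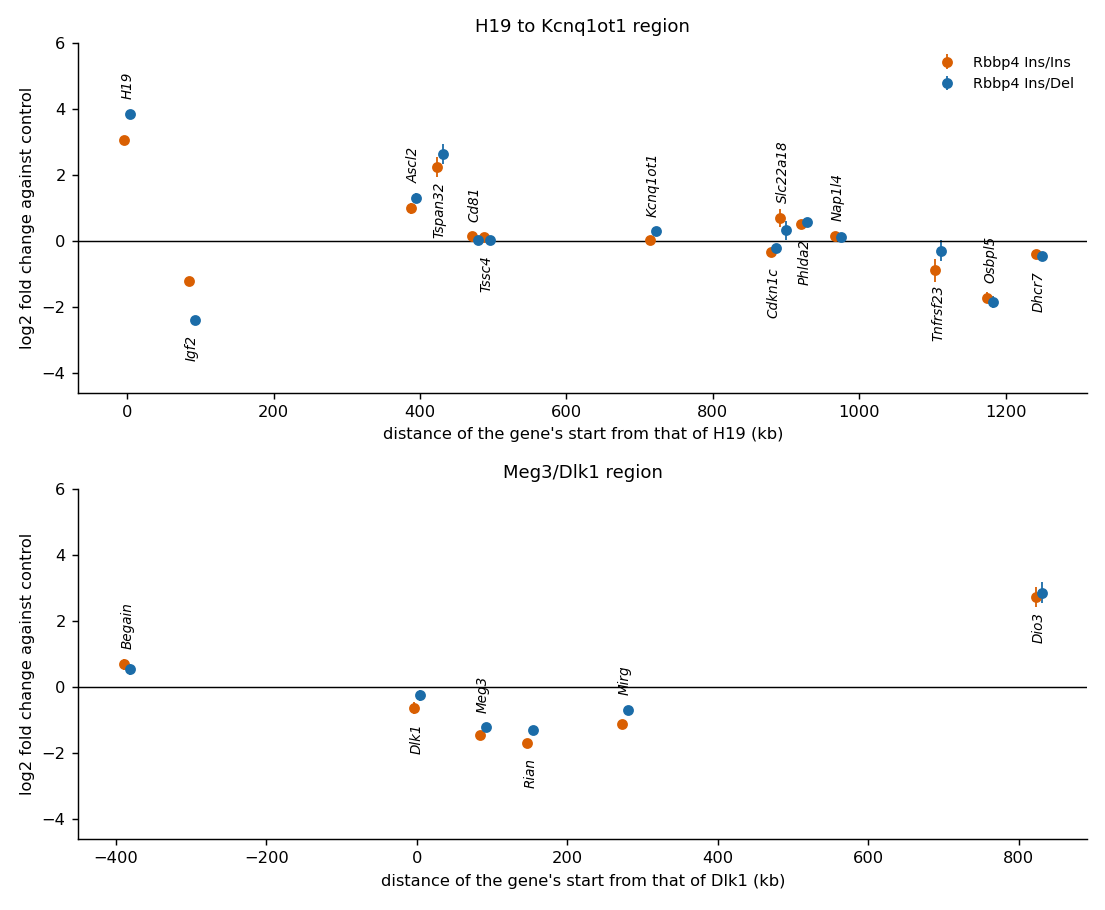
Log2 fold change against control (y axis, bars ± 1 SE) of tested imprinted genes by the distance of their start from that of H19 (upper plot) or Dlk1 (lower plot) in kb (x axis), in Ins/Ins (orange) and Ins/Del (blue). H19 at 0 kb and Igf2 at 88.7 kb lie far apart on the y axis, while Cd81, Tssc4 and Kcnq1ot1, at 474.6 to 718.4 kb, stay near 0. In the lower plot Meg3, Rian and Mirg, at 88.2 to 276.9 kb, lie below 0 and Dio3, at 826.2 kb, above it.

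The maternally expressed non-coding RNAs of the Meg3/Dlk1 cluster all fell. Meg3, Rian and Mirg are thought to arise from one long transcription unit that also hosts many small nucleolar RNAs and microRNAs, and in ESCs their silencing marks lines of poor developmental potential. Meg3 (chr12:109541001-109571726, plus strand) read 6023, 7629 and 8235 in the control, 2939.9, 2545 and 2497 in Ins/Ins, and 3149.6, 3044 and 3158 in Ins/Del. The lowest control library was still above every mutant library. The log2 fold change was -1.45 ± 0.061 (adjusted p = 1.17e-22) and -1.22 ± 0.060 (adjusted p = 1.39e-20).

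Rian, the host of small nucleolar RNAs, read 7982, 8054 and 8920.0 in the control, 2547, 2459 and 2598 in Ins/Ins, and 3373, 3292 and 3529 in Ins/Del. Its 3 lines did not overlap. On the log2 scale the change was -1.71 ± 0.037 in Ins/Ins (adjusted p = 5.67e-32) and -1.29 ± 0.036 in Ins/Del (adjusted p = 1.1e-28). Mirg, the host of microRNAs, gave 415, 455 and 421 normalized counts, then 211, 169 and 214, then 264, 267 and 264 in the same order of lines. Mirg values were again apart for each line, with log2 fold changes of -1.11 ± 0.084 (adjusted p = 1.06e-14) and -0.70 ± 0.080 (adjusted p = 6.21e-10). Meg3 was 2.74-fold lower in Ins/Ins and 2.34-fold lower in Ins/Del.

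The paternal genes of that cluster were low throughout. Dlk1, a transmembrane protein of the Notch ligand family, had 82.8 to 129 normalized counts in the control, 53.9 to 78.2 in Ins/Ins and 69.5 to 106 in Ins/Del. It fell in Ins/Ins (log2 fold change -0.64 ± 0.176, adjusted p = 0.00156), but missed the limit without control library 3 (adjusted p = 0.0399) or without Ins/Ins library 1 (adjusted p = 0.0244). In Ins/Del it did not pass (-0.26, 95% interval -0.58 to 0.07). Rtl1, a retrotransposon-derived gene needed in placenta, had 2, 2 and 5 reads in the control, 0, 0 and 2 in Ins/Ins, and 1, 2 and 0 in Ins/Del.

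In the Peg3, Snrpn and Peg10/Sgce clusters, the paternally expressed Peg3, Ndn, Magel2, Mkrn3, Peg10 and Sgce fell in both lines, and Usp29, Peg12 and Snrpn did not pass the test in either. Peg3 (chr7:6703892-6730431, minus strand), a zinc finger protein, had 2310.0, 2157 and 2221 normalized counts in the control, 821, 943 and 887 in Ins/Ins, and 908, 915 and 816 in Ins/Del. The mutant lines overlapped with each other and not with the control. Its log2 fold change was -1.34 ± 0.048 in each line (adjusted p = 5.07e-25 and 4.55e-25), and the difference between the lines was 0.00 with a 95% interval of -0.10 to 0.11. Usp29, which is transcribed away from the Peg3 promoter, had means of 70.4, 48.1 and 51.8 normalized counts and did not pass (adjusted p = 0.0133 and 0.0325). Zim1, the maternally expressed zinc finger gene beside Peg3, was at 20.6, 15.5 and 23.5 and did not pass either (adjusted p = 0.195 and 0.617).

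In the Snrpn cluster, the region affected in Prader-Willi syndrome, Magel2 fell most. Magel2, a regulator of ubiquitin ligases, had 82.9, 83.8 and 74.7 normalized counts in the control, 14.5, 14.7 and 10.6 in Ins/Ins, and 13.3, 13.5 and 16.2 in Ins/Del. All mutant values were below all control values. It was 6.07-fold lower in Ins/Ins (log2 fold change -2.59 ± 0.224, adjusted p = 5.35e-13) and 5.61-fold lower in Ins/Del (-2.49 ± 0.222, adjusted p = 9.53e-13). Ndn, a protein of the same family, gave 283, 259.8 and 262 in the control, 102, 97.0 and 89.9 in Ins/Ins, and 70.5, 113 and 84.5 in Ins/Del. Ndn thus separated the control from both mutants, with log2 fold changes of -1.48 ± 0.116 (adjusted p = 3.66e-14) and -1.57 ± 0.118 (adjusted p = 7.5e-15). Mkrn3, a ring finger protein, fell by 0.49 and 0.83 on the log2 scale. Its call in Ins/Ins (adjusted p = 0.000933) was lost without Ins/Ins library 1 (adjusted p = 0.0152) and with DESeq2 (adjusted p = 0.0103). Peg12 had log2 values of -0.50 and -0.61 that did not pass (adjusted p = 0.0578 and 0.0222). Snrpn, which holds the control region of the cluster, was low at 12.5, 16.4 and 15.5 normalized counts and did not pass (adjusted p = 0.307 and 0.45). Snrpn shares part of its exons with Snurf, so its reads may have been split or set aside in counting. Magel2, Ndn and Mkrn3 are expressed in neurons. Of the neural markers given above, the sum, Nes and Pax6 were lower in both mutants and Tubb3 was higher, and their part in these values was not tested.

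Peg10 and Sgce start back to back from one promoter region, and both fell. Sgce, a membrane protein of the sarcoglycan family, had 132, 131 and 134 normalized counts in the control, 63.3, 50.8 and 52.9 in Ins/Ins, and 51.1, 39.7 and 57.9 in Ins/Del. The mutant lines overlapped with each other and lay below the control. Its log2 fold change was -1.23 ± 0.145 (adjusted p = 1.5e-09) and -1.43 ± 0.15 (adjusted p = 7.28e-11). Peg10, a retrotransposon-derived gene needed for placenta and the most abundant member, fell from 19648 ± 526 to 11243 ± 46.0 in Ins/Ins (log2 fold change -0.81 ± 0.027) and to 17043 ± 429 in Ins/Del (-0.21 ± 0.027). Ppp1r9a, a maternally expressed actin-binding protein of neurons, fell by 0.54 and 0.26. Asb4, a ubiquitin ligase adaptor, had 15.2, 8.18 and 17.0 normalized counts and did not pass (adjusted p = 0.0421 and 0.724). Col1a2, the collagen gene on the other side of Sgce and also one of the fibroblast markers, had log2 values of -5.28 and -4.76.

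Gnas, which encodes the stimulatory G protein alpha subunit and further transcripts of either parental origin, fell in both lines. It had 5637, 5466 and 5429.5 normalized counts in the control, 2763, 2891 and 3001 in Ins/Ins, and 2421, 2463 and 2373 in Ins/Del. The lines did not overlap. The log2 fold change was -0.94 ± 0.033 (adjusted p = 3.17e-25) and -1.19 ± 0.033 (adjusted p = 1.81e-28). Counts per gene do not separate the transcripts that start at different promoters of Gnas.

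**Figure D3:**
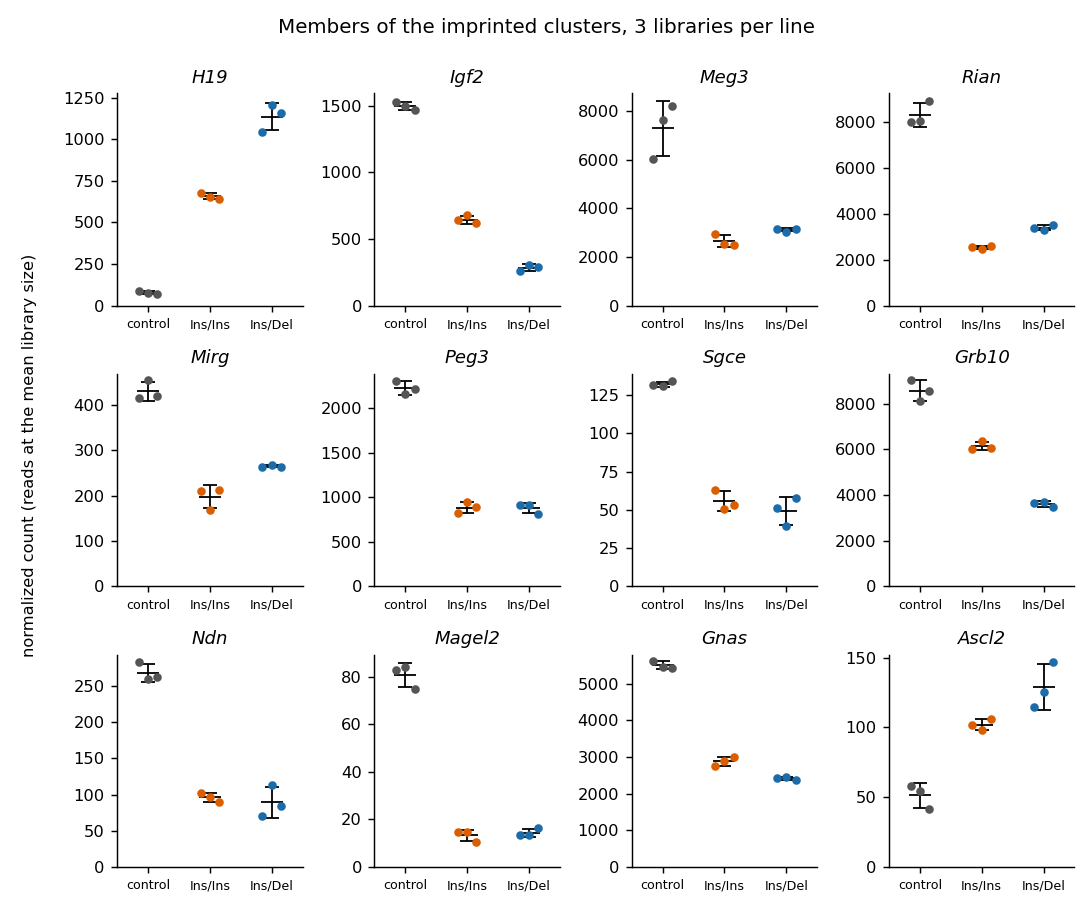
Normalized counts (y axis, each panel from 0) of 12 members in the 3 libraries of control, Ins/Ins and Ins/Del (x axis); points are libraries and bars the mean ± SD. The members shown were picked for a call of over 2-fold in either mutant line. H19 and Ascl2 were higher in every mutant library, and the other 10 members were lower in every mutant library. Igf2, Grb10 and Gnas were lowest in Ins/Del without overlap between the lines.

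A group of paternally expressed genes outside these clusters rose from low control levels. Nnat had 10.3, 12.6 and 12.99 normalized counts in the control, 47.0, 26.0 and 32.8 in Ins/Ins, and 97.1, 89.3 and 86.8 in Ins/Del. Its lines did not overlap. On the log2 scale the change was 1.60 ± 0.281 (adjusted p = 4.56e-06) and 2.93 ± 0.234 (adjusted p = 4.58e-14), and Ins/Del exceeded Ins/Ins by 2.58-fold (adjusted p = 1.02e-06). Plagl1 gave 21.4, 36.7 and 30.3 in the control, 123, 100.4 and 114 in Ins/Ins, and 209, 239 and 238 in Ins/Del. Each line again stood apart for Plagl1. Its log2 fold change was 1.97 ± 0.172 (adjusted p = 7.52e-13) and 2.98 ± 0.152 (adjusted p = 4.78e-20), with a 2.03-fold difference between the mutants (adjusted p = 1.97e-08).

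Nap1l5 was close to undetected in the control, with 0, 2 and 3 reads. It had 20, 19 and 13 reads in Ins/Ins and 39, 36 and 30 in Ins/Del. The reads rose by a ratio of 10.6 (95% counting interval 4.25 to 33.9) and 21.7 (9.01 to 68.2). Peg13, a non-coding RNA, had 2, 2 and 1 reads in the control, 13, 6 and 14 in Ins/Ins, and 30, 28 and 36 in Ins/Del. Its ratios were 6.7 (2.6 to 22.0) and 19.4 (8.03 to 61.2). The intervals cover counting error only. Both genes entered the test only through the mutant libraries, where they were high, so no p-value against the control is given.

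Zrsr1 was well expressed in the control and rose by smaller factors. It read 333, 319 and 338 normalized counts in the control, 564, 590.2 and 615 in Ins/Ins, and 830.1, 866 and 879 in Ins/Del. The 3 lines were apart from each other. The log2 fold change was 0.83 ± 0.064 (adjusted p = 1.93e-14) and 1.38 ± 0.061 (adjusted p = 5.01e-22). Zrsr1 shares 9.17% of its exonic length with Commd1 on the other strand, and the strand setting of the counting is not stated, so reads of that stretch cannot be assigned.

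**Figure D4:**
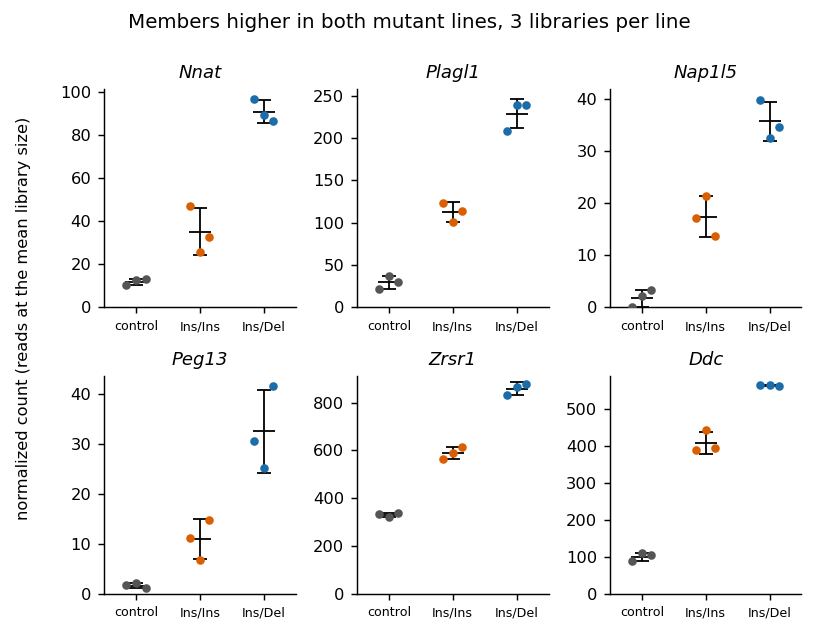
Normalized counts (y axis, each panel from 0) of 6 members in the 3 libraries of control, Ins/Ins and Ins/Del (x axis); points are libraries and bars the mean ± SD. In all 6 panels every mutant library lies above every control library, and every Ins/Del library above every Ins/Ins library. These members were picked for being higher in both mutant lines, so their place above the control follows from that choice. Nap1l5 and Peg13 could also enter the test only by being higher there.

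Nnat, Nap1l5, Peg13 and Zrsr1 each lie within another gene, and of these hosts Commd1 alone was called higher, in Ins/Ins. Blcap, the host of Nnat, had 588 ± 22.3, 524 ± 28.0 and 484 ± 8.22 normalized counts (log2 fold change -0.17, adjusted p = 0.0144, and -0.28, adjusted p = 0.000131). Herc3, the host of Nap1l5, fell from 575 ± 8.41 to 365 ± 28.2 and 467 ± 18.1 (-0.66 and -0.30). Trappc9, around Peg13, was at 567, 565 and 479, with a log2 value of 0.00 (adjusted p = 0.971) and then -0.25 (adjusted p = 0.0019). Its call in Ins/Del was lost with DESeq2 (adjusted p = 0.0139) and without control library 2, Ins/Del library 1 or Ins/Del library 2 (adjusted p = 0.0205, 0.0105 and 0.0296). Commd1, around Zrsr1, was at 943, 1052 and 992 (0.16, adjusted p = 0.00454, and 0.08, adjusted p = 0.168). Its first call was lost with DESeq2 (adjusted p = 0.0179) and on leaving out any of 4 libraries, control 1 or 3 or Ins/Ins 2 or 3 (adjusted p = 0.0108 to 0.0145). H13, a signal peptide peptidase and itself a member, fell by 0.20 and 0.34, and Mcts2, the paternally expressed gene copy within it, was at 0.15 (adjusted p = 0.106) and rose by 0.55 in Ins/Del (adjusted p = 1.04e-07).

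**Figure D5:**
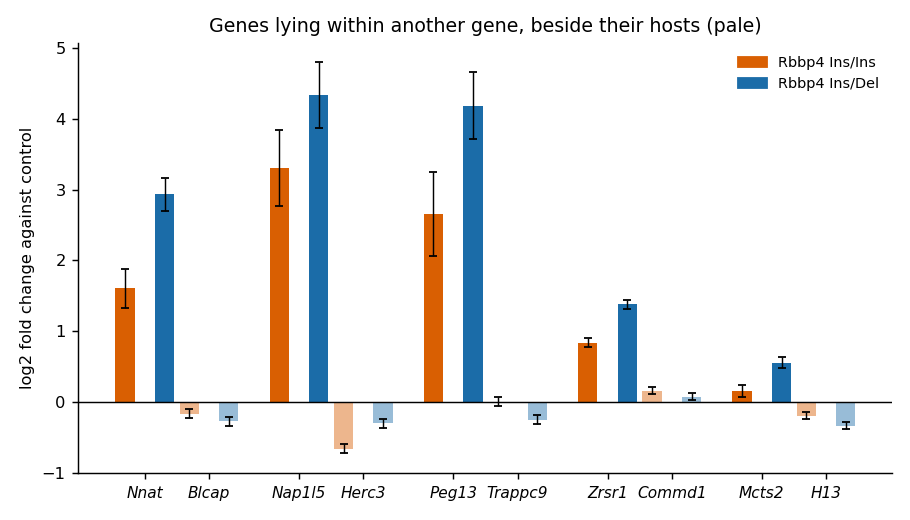
Log2 fold change against control (y axis, bars from 0 with ± 1 SE) of 5 paternally expressed genes (full color) beside the host gene each lies within (pale), in Ins/Ins (orange) and Ins/Del (blue). The host values lie between -0.66 and 0.16, below those of the gene inside in each pair and line. Nap1l5 and Peg13 could enter the test only by being higher in the mutants, so their pairs do not test this order.

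Grb10 and Ddc lie side by side and went in opposite directions. Grb10, an adaptor that restrains growth factor signaling, had 9014, 8099 and 8562 normalized counts in the control, 6020.0, 6347 and 6035 in Ins/Ins, and 3634, 3681 and 3454 in Ins/Del. Its values stepped down from line to line without overlap, with log2 fold changes of -0.48 ± 0.033 (adjusted p = 6.89e-16) and -1.25 ± 0.035 (adjusted p = 8.51e-29). Ddc, the decarboxylase that makes dopamine and serotonin, gave 88.1, 110.0 and 104 in the control, 389, 445 and 396 in Ins/Ins, and 565, 568 and 563 in Ins/Del. Ddc rose in steps in the same order, by 2.03 ± 0.093 (adjusted p = 2.15e-21) and 2.5 ± 0.089 on the log2 scale (adjusted p = 3.81e-25).

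Igf2r, the maternally expressed receptor that clears Igf2, rose by 0.44 and 0.45 on the log2 scale, from 4855 ± 54.6 to 6574 ± 113 and 6644 ± 234. Airn, the paternal antisense RNA within Igf2r, had 3, 6 and 8 reads in the control, 3, 1 and 3 in Ins/Ins, and 4, 1 and 0 in Ins/Del, and was not tested. The remaining members stayed within 0.35 of 0 on the log2 scale. Zdbf2 was at -0.06 (adjusted p = 0.124) and 0.33 (adjusted p = 2.54e-10). Impact, a regulator of translation, was at -0.15 and 0.14, and Mest, an enzyme of the hydrolase family, at -0.10 and 0.16, so these 2 had opposite signs in the 2 lines. The Mest call in Ins/Ins (adjusted p = 0.00896) was lost in 5 other fits, the test against 2-fold among them, and on leaving out any of the 6 libraries. The Impact call in Ins/Ins was lost without Ins/Ins library 1 (adjusted p = 0.0101), and that in Ins/Del without control library 2 (adjusted p = 0.0115). Copg2, which shares 17.81% of its exonic length with Mest on the other strand, was at 0.05 and -0.06 and did not pass.

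The mutant lines were also compared with each other. Ins/Del had 14 members above Ins/Ins and 4 below, which is 43.9% of 41, against 10.8% of all tested genes (6.17% higher and 4.64% lower). Over 2-fold differences were found for 5 members (12.2%), Igf2, Nnat, Plagl1, Peg13 and Nap1l5, and for 0.361% of all genes. Without Peg13 and Nap1l5 these shares were 41.0% and 7.69% of 39. The median log2 difference of the members was 0.13, beside 0.00 for all genes. The differences included H19, Igf2, Grb10 and the paternal genes Nnat, Plagl1, Peg13 and Nap1l5, where Ins/Del was further from the control than Ins/Ins. At Rian, Mirg, Peg10 and Ppp1r9a, Ins/Ins was further from it.

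Genes around the clusters were set beside them. Within 500 kb of a cluster or between its ends lie 99 tested protein-coding genes outside the imprinted lists, of which 28 were higher and 22 lower in Ins/Ins (50.5%) and 30 and 28 in Ins/Del (58.6%), with a median log2 fold change of 0.05 in each. All tested genes had 58.4% and 62.5% called. Over 2-fold changes were at 14.1% and 16.2% of the neighbors, beside 16.0% and 18.6% of all genes, so these shares were near the background. The median per chromosome lay between -0.06 and 0.05 in both comparisons. With non-coding genes included, 113 were tested (51.3% and 57.5% called). This wider set holds transcripts that overlap exons of members, such as Igf2os at Igf2 and Mir3072 at Mirg. It is therefore not a background free of the imprinted units. By size the leading genes were Col1a2, Zscan5b beside Peg3 (2.7 and 3.01), 1700042O10Rik beside Grb10 (2.56 and 2.73), Lsp1 beside H19 (-1.76 and -2.58) and Mir3072 within Mirg (-1.72 and -2.10).

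Further imprinted genes were described by a second list. Of its 28 tested genes, 11 were higher and 13 lower in Ins/Ins (85.7%, beside 58.4% of all genes), and 12 and 13 in Ins/Del (89.3%, beside 62.5%), with medians of -0.21 and -0.23. The largest changes were at Calcr, the calcitonin receptor near Sgce (log2 fold change -3.31 and -4.46), Dio3, the thyroid hormone deiodinase of the Meg3/Dlk1 cluster (2.72 and 2.86), Tspan32 near Ascl2 (2.23 and 2.64), Ampd3 (2.24 and 2.61) and Magi2 (-1.89 and -2.54). A further list holds genes known for an imprint that rests on H3K27me3 instead of DNA methylation. Whether they are imprinted in these cells was not measured. All 6 tested genes of this list were called in each line, beside 58.4% and 62.5% of all genes. Slc38a4, Gab1, Jade1 and Smoc1 were higher and Sfmbt2 and Sall3 lower, with Slc38a4 at 0.88 and 1.03 and Sall3 at -1.05 and -0.66. Apart from Sall3, these genes are also counted in the second list.

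Factors that set or keep imprints also changed at the RNA level. Of 28 tested, 14 were higher and 9 lower in Ins/Ins (82.1%, beside 58.4% of all genes), and 15 and 11 in Ins/Del (92.9%, beside 62.5%), mostly by small amounts, with a median of 0.06 and 0.11. By mean change over both lines, the largest were Ctcfl, Dnmt3a, Dnmt3b, Dnmt3l and Zfp42. Ctcfl, the germ cell relative of the insulator protein CTCF, had log2 fold changes of 2.12 and 2.30. The de novo DNA methyltransferases Dnmt3a (-1.65 and -1.31) and Dnmt3b (-1.27 and -1.19) fell. Their cofactor Dnmt3l (0.88 and 1.24) and Zfp42 (0.90 and 1.06) rose. Dppa3 fell by less in Ins/Ins (-0.28) than in Ins/Del (-1.21). Zfp57, named for the motif printed above, had 4354, 6910 and 8018 normalized counts (0.67 and 0.88). Dnmt1, which copies methylation after replication, was at 0.20 and 0.17, and Ctcf, which binds the H19/Igf2 control region, at -0.10 and -0.11. The part of these factors in the values of the imprinted genes was not tested.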

How the data were processed

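RNA-seq libraries of 3 ESC lines (control, Ins/Ins and Ins/Del, 3 libraries each) were grouped by genotype label. Kapa mRNA HyperPrep libraries were sequenced by the authors as paired ends of 50 bp, aligned to mm10 with STAR 2.7.3 and counted with HTSeq. Raw counts per gene symbol were deposited, 15838064 to 21366868 per library. The HTSeq annotation and strand setting are not given in the sources used here, so overlapping genes are uncertain.

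edgeR 4.0.16 (R 4.3.3) computed TMM factors (0.993 to 1.016), filtered genes with filterByExpr (minimum count 10) and fitted glmQLFit and glmQLFTest to all 9 libraries as 3 groups without covariates. P-values were adjusted by Benjamini-Hochberg over 14125 genes and called at 0.01, with SE as the absolute log2 fold change over the square root of F. The normalized count is the count over the effective library size, times the mean of that size. The fit was tested on simulated data. Gene positions are from GENCODE M21 (GRCm38, the mm10 build). Alternatives were DESeq2 1.42.0, its size factors, library totals, every gene with 1 read, fits of just 2 groups, a replicate block, omission of each library, a limit of 0.05 and a test against 2-fold.

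Library values are given for members called over 2-fold in either mutant and for the non-coding RNAs of clusters, other lists name at most 5 genes over 2-fold with the largest mean change, and the other genes were named after their values were seen. Members and lists were chosen with earlier results of these data known.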

Additional observations from a re-analysis of the deposited data

Results flagged for a closer look

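The mutant lines were compared directly, and 18 imprinted genes were flagged because their change against the control differed between the lines in edgeR's test of the difference itself. The log2 difference of Ins/Del from Ins/Ins was 1.53 for Peg13, 1.33 for Nnat, 1.03 for Nap1l5, 1.01 for Plagl1, 0.79 for H19, 0.54 for Zrsr1 and 0.47 for Ddc, members that were higher than the control in both lines. It was -1.17 for Igf2, -0.77 for Grb10 and -0.25 for Gnas, which were lower in both. Rian (0.42), Mirg (0.41), Peg10 (0.60) and Ppp1r9a (0.28) were lower in both lines and less so in Ins/Del. Mest (0.26), Impact (0.29), Zdbf2 (0.40) and Trappc9 (-0.25) differed by small amounts.

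The Nap1l5 difference (adjusted p = 0.00779) missed the limit when any of the 6 mutant libraries was left out (adjusted p = 0.0111 to 0.048), and DESeq2 gave it no adjusted p. The Trappc9 difference (adjusted p = 0.00902) missed it with DESeq2 (0.0498), with DESeq2's size factors in edgeR (0.0121), with the replicate block (0.0102), without Ins/Ins library 1 or 3 (0.169 and 0.0101), and without Ins/Del library 1 or 2 (0.0391 and 0.0922). The Mirg difference (adjusted p = 0.00101) missed it without Ins/Ins library 2 (0.0159). Each line is 1 clone, so the mutation and the clone cannot be told apart in these differences.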

How the results depend on the processing

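Against a 2-fold change (glmTreat in edgeR), the members called were 10 in Ins/Ins (4 higher, 6 lower) in place of 30, 16 in Ins/Del (7 higher, 9 lower) in place of 30, and 0 between the lines (0 higher, 0 lower) in place of 18; at an unadjusted p under 0.05 that last test kept Igf2, Nnat and Peg13, 3 of 41. Over all genes it called 1236, 1563 and 0 in place of 8252, 8829 and 1527, with 27 at an unadjusted p under 0.05 in the last. At an adjusted p of 0.05, 2682 genes differed between the lines. Leaving out 1 library at a time, 26 to 29 members were called in Ins/Ins (10 to 12 higher, 15 to 18 lower), 28 to 30 in Ins/Del (13 to 14 higher, 14 to 16 lower) and 16 to 17 between the lines (12 to 14 higher, 3 to 4 lower). Between the lines, all-gene calls were 1014 without Ins/Ins library 1 and 988 without Ins/Del library 2. The log2 fold changes of the members given per library were recomputed under each alternative other than the 0.05 limit and the 2-fold test. Of these values, 11 lost a call, 7 gained one and no called value turned its direction. The 2-fold test removed further calls of these members, within the counts given above. Values that were not called did change sign: Kcnq1ot1 in Ins/Ins (-0.16 to 0.16) and, between the lines, Peg3 (-0.05 to 0.05), Ndn (-0.32 to 0.05) and Magel2 (-0.04 to 0.18). With the replicate number as a block, 29, 30 and 18 members were called (12 higher and 17 lower, 14 and 16, 15 and 3). Pairing was not taken from the numbers, since the labels give no shared source and same-numbered libraries correlated at -0.03 to 0.06; 11 of 18 best matches had the same number, a hint from the data and not from the design.

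Limits: 3 libraries per line, 1 clone per mutation, no allele information and no DNA methylation. The p-values reflect the spread between libraries of one clone. Rtl1, Airn and Kcnq1 were too low to test. Peg13 and Nap1l5 rest on 5 control reads each. Strand setting and annotation of the counting are not known, which matters for Kcnq1ot1, Airn, Mest with Copg2 and Zrsr1 with Commd1.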
